A study of Homo sapiens with 16 samples.

Results

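The genes of the Fanconi anaemia pathway and of homologous recombination were followed in MOLM-13 cells, an established human line of acute myeloid leukaemia that carries an MLL fusion and an internal tandem duplication in FLT3. The set of 36 genes was chosen by symbol from 60669 rows of a table of counts per gene, all 36 were found once each, and all 36 had enough counts to be tested with 16555 genes in all. Cells in RPMI1640 with serum stayed 4 days in the solvent DMSO (0.005%), in 1 µM of an inhibitor of EZH2 (EZH2i), in 1 µM of an inhibitor of PRMT5 (PRMT5i) or in both inhibitors (the combination), and each group had 4 libraries. All groups are 1 cell line, neither compound is named, and whether replicates were separate cultures is not given, so p-values measure the spread between these libraries. EZH2 is the methyltransferase of polycomb complex PRC2, which acts on H3K27, and PRMT5 modifies arginines of histones, splicing factors and other proteins. The labels give total RNA and do not name a library kit.

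A double-strand break is repaired by homologous recombination when a sister chromatid can serve as the template, mostly in S and G2 phase. Ends are trimmed by the MRE11-RAD50-NBN complex with RBBP8 (CtIP) and by EXO1, BRCA1 with BARD1 and PALB2 brings BRCA2 to the break, and mediator proteins then prepare the trimmed end for strand invasion. Crosslinks between DNA strands are met by the Fanconi core complex, whose ligase FANCL puts ubiquitin on the FANCD2-FANCI pair, after which nucleases and recombination complete the repair. Many of these genes are known to be transcribed most in cells that are replicating DNA, and E2F factors are among their known regulators.

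Start sites of 33 of the 36 genes have an entry in the RefSeq promoter table (GRCh38.p14; 250 bases before and 50 after the start). These 300-base windows were searched on both strands for the E2F-type letters TTTCCCGC, TTTGGCGC, TTTCGCGC and TTTGCCGC. Of the 33 windows 5 held a match, 15.2%, against 5.3% of 10107 windows of tested genes and 3.33% of all 27305 windows. FANCC held 2 matches, and the 6 matches do not overlap each other. Each is shown in 30 bases in the direction of the gene, 5′ to 3′, with the match in capitals, so that the 4 windows with the letters GC at the left of the capitals hold the match on the opposite strand.
FANCD2 (chr3:10026424-10026453, plus strand): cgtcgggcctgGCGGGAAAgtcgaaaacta
XRCC2 (chr7:152676102-152676131, minus strand): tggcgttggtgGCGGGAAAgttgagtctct
EXO1 (chr1:241848197-241848226, plus strand): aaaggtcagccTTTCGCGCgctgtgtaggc
FANCA (chr16:89816801-89816830, minus strand): actacaccgcgGCGGCAAAgccaaacgcaa
FANCC (chr9:95317863-95317892, minus strand): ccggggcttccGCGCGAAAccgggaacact
FANCC (chr9:95317737-95317766, minus strand): ttcgtcggaatTTTCCCGCgacgccgcggg
The match of FANCD2 spans −2 to 6 around the start, that of XRCC2 lies at 22 to 29 and that of EXO1 at 5 to 12 (there is no position 0). The match of FANCA lies at −172 to −165, and those of FANCC at −172 to −165 and −46 to −39. The CHR letters TTTGAA or TTCGAA were found in 4 of the 33 windows (12.1%, against 11.7% for tested genes and 16.6% of all windows) and CCAAT in 13 (39.4%, against 36.7% for tested genes and 35.7% of all windows). A match is a stretch of letters, not a measured binding site. The difference between these shares, and any part of the matches in the changes below, was not tested.

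Depth was 31142456 to 52885899 expected counts per library. Libraries did not spread alike. In DMSO replicate 1, 25 of the 36 genes had their highest DMSO level and 7 their lowest, and in DMSO replicate 2, 9 had their highest and 21 their lowest. DMSO replicate 1 also had 1.70% of its counts on mitochondrial genes, against 0.213% to 0.792% in the other 15. The median coefficient of variation of the 36 genes was 16.7% under DMSO, 11.8% under EZH2i, 7.7% under PRMT5i and 7.21% under both. Counts of called genes are therefore also given without DMSO replicate 1 and, as a choice made after seeing the data, within replicates 1 and 2 and within replicates 3 and 4. Of the drug targets, EZH2 had 21.5, 42.5, 43.8 and 42.4 CPM in the DMSO libraries, 47.6, 48.6, 48.6 and 48.3 in those given EZH2i, 23, 25.4, 24.8 and 26.2 in those given PRMT5i and 36.1, 35.1, 35 and 33.8 in those given both. PRMT5 had 105, 129, 112 and 118 CPM in the DMSO libraries, 124, 106, 121 and 108 in those given EZH2i, 120.5, 123, 119 and 115 in those given PRMT5i and 129, 127, 119 and 119 in those given both. These mRNA levels do not measure enzyme activity, and EZH2 was low in DMSO replicate 1. In edgeR EZH2 fell with PRMT5i (−0.60) and from EZH2i to the combination (−0.46), and PRMT5 passed in no comparison. The second of these EZH2 calls was lost without any 1 of the 8 libraries of its 2 groups, with total counts only and within replicates 1 and 2.

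The cells expressed myeloid leukaemia genes such as FLT3, at 697 ± 97.3 CPM with DMSO (mean ± SD, n = 4), and CD33, at 81.8 ± 6.43 CPM. CPM is a gene's count scaled to the depth of its library with TMM factors. Defining markers of other cell types were at or near 0: CD2, KRT14 and CDH1 had 0 counts in all 16 libraries, MS4A1 had 1 count at most, and the 5 erythroid markers together reached 0.221 CPM at most. The 5 B cell markers together had 0.693 to 1.96 CPM over all libraries. The 8 epithelial and fibroblast markers had 0.414 to 1.06 CPM under DMSO, 1.44 to 3.64 under EZH2i, 0.397 to 0.640 under PRMT5i and 1.13 to 1.68 under both, and the 6 T and NK cell markers had 24.0 to 35.4 CPM in all, most of it from NKG7.

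Per kilobase of merged exons (GENCODE v29), the mean DMSO level of the 36 genes ran from 0.830 CPM per kb for FANCC to 54.4 for NBN, a subunit of the break-sensing complex. RBBP8 (17.1), the helicase gene BLM (14.5), RAD51AP1 (13.6) and FANCI (13.4) followed NBN. At the low end stood FANCC, SLX4 (1.86), RAD51D (2.40), EME1 (2.97) and FANCB (3.02). RAD51AP1 had a DMSO SD of 11.6 CPM on a mean of 34.8 CPM, so its place between BLM and FANCI lies within its spread. The 36 genes were long, with a median span of 59.8 kb and 18 merged exon blocks, against 31.6 kb and 11 for the 12861 tested protein-coding genes. Their longest transcripts had a median GC content of 42.1%, against 48.6%.

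PRMT5i against DMSO asks what PRMT5 inhibition alone did. Of the 36 genes 29 fell and 2 rose in edgeR (adjusted p under 0.05 over all genes), and 5 did not pass. Among all 16555 genes 18.3% were called lower and 17.1% higher, 35.3% in all. The median log2 fold change of the 36 was −0.93, with that of all genes near 0, and the values ran from −1.71 for FANCD2 to 0.52 for SLX4. A fall of at least 1 on the log2 scale was called for 16 of them, and for 4.54% of all genes. All 4 PRMT5i libraries lay under all 4 DMSO libraries for 26 of the 36, and for 17.2% of all genes.

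**Figure D1:**
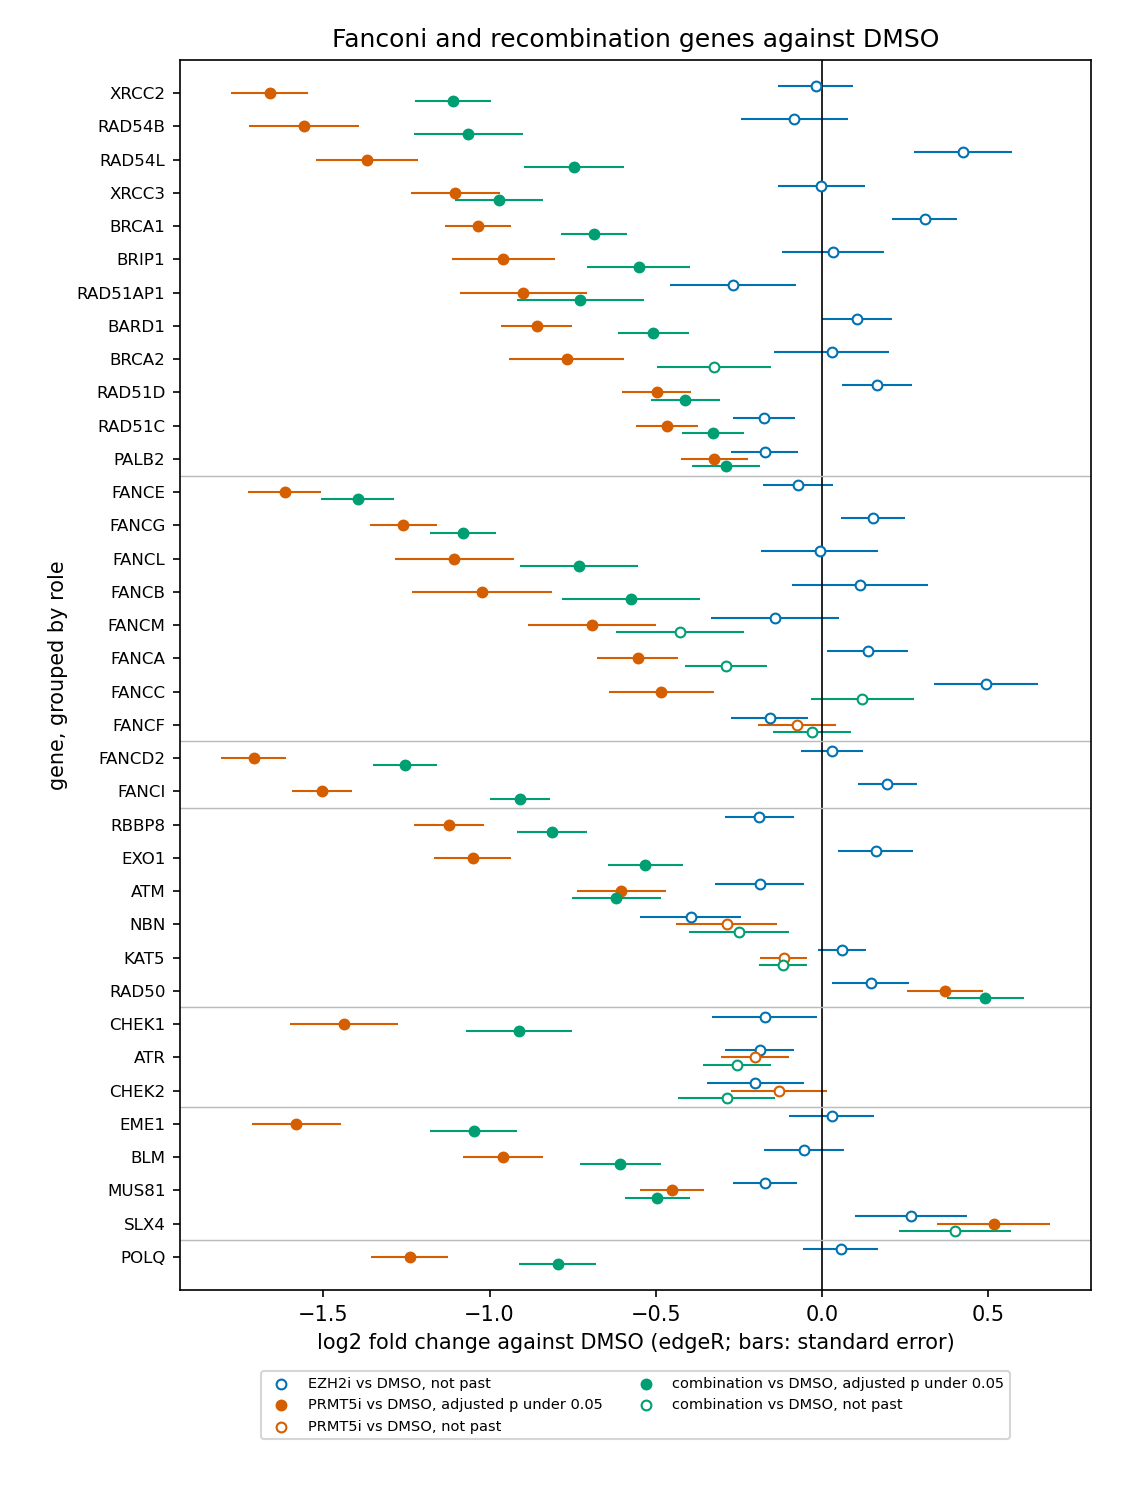
Log2 fold change against DMSO (x axis) of each of the 36 genes (y axis, grouped by role, lines between roles) under EZH2i, PRMT5i and the combination. Points are edgeR estimates, bars are standard errors derived from the edgeR test, and filled points passed at an adjusted p under 0.05. PRMT5i values lie left of 0 for 34 of 36 genes, and no EZH2i point is filled.

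The FANCD2-FANCI pair, the substrate of the Fanconi ligase, had the smallest p-values. FANCD2 (ENSG00000144554.10, chromosome 3, 10026414 to 10101930, GRCh38, GENCODE v29 here and below) had, in replicate order, 81, 71.4, 60.4 and 71 CPM in the DMSO libraries, 73.4, 72.9, 74.1 and 69.4 in those given EZH2i, 22.6, 23.2, 18.9 and 22 in those given PRMT5i and 28.6, 32.2, 27.5 and 30.6 in those given both. Every PRMT5i library was under every DMSO and EZH2i library, and the combination libraries lay between, without overlap. With PRMT5i FANCD2 stood at 30.6% of its DMSO level (log2 fold change −1.71, SE 0.10, adjusted p = 2.9e-09). FANCI (ENSG00000140525.17, chromosome 15, 89243949 to 89317261) had 110.0, 95.3, 99.7 and 110.2 CPM in the DMSO libraries, 112, 123, 121 and 120.2 in those given EZH2i, 39.8, 38.9, 32.9 and 34.7 in those given PRMT5i and 57.6, 62.5, 49.3 and 51.7 in those given both. Its order was the same (log2 fold change −1.50, SE 0.09, adjusted p = 6.55e-09 for PRMT5i against DMSO).

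Of 8 core complex genes 7 fell with PRMT5i, and FANCF, the adaptor of the complex, did not pass (−0.08). FANCE (ENSG00000112039.3, chromosome 6, 35452356 to 35467103), which bridges the core complex and FANCD2, had 33.8, 29.1, 27.3 and 28.1 CPM in the DMSO libraries, 31.8, 28.6, 27.5 and 24.7 in those given EZH2i, 10.2, 9.75, 9.07 and 9.55 in those given PRMT5i and 12.3, 9.16, 12.6 and 10.8 in those given both. The 8 libraries with PRMT5i, alone or in the combination, all lay under the 8 without it (log2 fold change −1.62, SE 0.11, adjusted p = 2.19e-08). FANCG (ENSG00000221829.9, chromosome 9, 35073835 to 35080016), another core subunit, had 18, 18.4, 16 and 16 CPM in the DMSO libraries, 22, 18.7, 19.7 and 15.6 in those given EZH2i, 7.16, 7.65, 7.07 and 6.66 in those given PRMT5i and 7.86, 8.03, 7.96 and 8.46 in those given both. Its groups separated in the same way (log2 fold change −1.26, SE 0.10, adjusted p = 7.18e-08). The ligase gene FANCL fell (−1.11), as did FANCB (−1.02), the translocase gene FANCM (−0.69), FANCA (−0.55) and FANCC (−0.48). The groups of FANCC and FANCM overlapped. For FANCM, DMSO replicate 2 (18.99 CPM) was below PRMT5i replicate 1 (19.51 CPM). The call of FANCC was lost without DMSO replicate 2 or 3, or PRMT5i replicate 1 or 4. It was also lost with total counts only and in a fit of these 2 groups alone.

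All 12 genes of the recombination mediators and their partners fell with PRMT5i. XRCC2 (ENSG00000196584.2, chromosome 7, 152644779 to 152676165), a mediator, had 30.2, 22.8, 26.3 and 27.8 CPM in the DMSO libraries, 23.4, 27.6, 25.2 and 29.5 in those given EZH2i, 9.27, 8.66, 7.65 and 8.23 in those given PRMT5i and 13.2, 14.5, 10.9 and 11 in those given both. The PRMT5i libraries were the lowest of the 16, with no overlap with the combination (log2 fold change −1.66, SE 0.12, adjusted p = 2.67e-08). BRCA1 (ENSG00000012048.19, chromosome 17, 43044295 to 43170245), the ligase that starts the mediator chain, had 54.2, 71.9, 67.8 and 71.5 CPM in the DMSO libraries, 74.7, 86.4, 79.7 and 87.9 in those given EZH2i, 31.7, 36.1, 30.2 and 31.5 in those given PRMT5i and 44, 42.1, 38 and 40.8 in those given both. Its lowest DMSO library, replicate 1, was still above the highest PRMT5i library (log2 fold change −1.03, SE 0.10, adjusted p = 5.72e-07). RAD54L (ENSG00000085999.11, chromosome 1, 46247688 to 46278473), a motor protein that acts in strand invasion, had 8.54, 14, 10.3 and 10.7 CPM in the DMSO libraries, 15.3, 15.6, 14 and 13.4 in those given EZH2i, 4.08, 4.86, 4.20 and 3.68 in those given PRMT5i and 8.20, 6.44, 5.96 and 5.24 in those given both. It fell with PRMT5i (log2 fold change −1.37, SE 0.15, adjusted p = 3.2e-06).

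Among the other mediators the log2 fold changes with PRMT5i were −1.56 for the second motor gene RAD54B, −1.10 for XRCC3, −0.96 for the helicase BRIP1, −0.90 for RAD51AP1, −0.86 for BARD1 and −0.77 for BRCA2. The smallest were −0.50 for RAD51D, −0.47 for RAD51C and −0.32 for PALB2. RAD51AP1 alone among the 12 had overlapping groups, with DMSO libraries at 47.9, 19.9, 33.5 and 38 CPM against 20.6, 19.3, 16.5 and 18.4 under PRMT5i, where DMSO replicate 2 was below PRMT5i replicate 1. The call of PALB2 was lost without DMSO replicate 1 or PRMT5i replicate 3 or 4.

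Break sensing and resection was the most mixed role, with 3 genes lower, 1 higher and 2 not past. RBBP8 (ENSG00000101773.16, chromosome 18, 22798261 to 23026488) had 108, 76.3, 79.7 and 84.9 CPM in the DMSO libraries, 71.4, 76.6, 77.5 and 80.7 in those given EZH2i, 41.9, 42.6, 35.2 and 40.5 in those given PRMT5i and 48, 54.7, 46.1 and 49.8 in those given both. It fell with PRMT5i without overlap (log2 fold change −1.12, SE 0.10, adjusted p = 4.7e-07). EXO1 (ENSG00000174371.16, chromosome 1, 241847967 to 241895148), the long-range nuclease, had 40.7, 29.3, 32.4 and 35.8 CPM in the DMSO libraries, 38.5, 39.9, 37 and 39.2 in those given EZH2i, 18.3, 18.5, 14.8 and 15.1 in those given PRMT5i and 25, 27.5, 21.4 and 21.6 in those given both. Its PRMT5i libraries were again the lowest (log2 fold change −1.05, SE 0.12, adjusted p = 2.36e-06). The break kinase gene ATM fell less (−0.60), from 264 ± 51.6 to 174 ± 1.21 CPM. NBN (−0.29) and KAT5 (−0.12), an acetyltransferase gene that activates ATM, did not pass.

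RAD50 and SLX4 rose. RAD50 (ENSG00000113522.13, chromosome 5, 132556019 to 132646344), the ATPase of the MRE11 complex, had 65.4, 76.1, 68.3 and 73.5 CPM in the DMSO libraries, 71.5, 65, 83.8 and 93.4 in those given EZH2i, 80.5, 88.4, 95.5 and 102 in those given PRMT5i and 84.6, 112, 99 and 103 in those given both. The lowest PRMT5i library was above the highest DMSO library, but the EZH2i libraries overlapped both (log2 fold change 0.37, SE 0.12, adjusted p = 0.0193). This call was lost without DMSO replicate 1 or 3, or PRMT5i replicate 3 or 4, and another gene model on the same strand shares 79.7% of the exon bases of RAD50, so its level is uncertain. SLX4 (ENSG00000188827.10, chromosome 16, 3581181 to 3611598), the scaffold of several nucleases, had 9.79, 21.4, 17.7 and 15 CPM in the DMSO libraries, 22.1, 20.4, 19 and 15.3 in those given EZH2i, 22.9, 24.1, 22.6 and 21.6 in those given PRMT5i and 20.5, 20.8, 23 and 20.01 in those given both. It was lowest in DMSO replicate 1 (log2 fold change 0.52, SE 0.17, adjusted p = 0.0247), and its call was lost without DMSO replicate 4 or PRMT5i replicate 2, and in a fit of these 2 groups alone.

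Of the checkpoint kinases only CHEK1 passed. CHEK1 (ENSG00000149554.12, chromosome 11, 125625136 to 125676255), the S phase checkpoint kinase, had 82.3, 43.6, 57 and 60.6 CPM in the DMSO libraries, 45.2, 59.4, 50.6 and 60.7 in those given EZH2i, 25.6, 24.9, 19.2 and 20.1 in those given PRMT5i and 32.2, 34.4, 29.3 and 33.6 in those given both. It fell without overlap although DMSO libraries ranged from 43.6 to 82.3 CPM between replicates (log2 fold change −1.44, SE 0.16, adjusted p = 3.21e-06). ATR, which activates CHEK1, had 100.2, 71.8, 82.2 and 89.8 CPM under DMSO and 78.4, 74.4, 72 and 74.5 under PRMT5i (−0.20), and CHEK2, the kinase downstream of ATM, was at −0.13. Neither passed.

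Of the 4 genes that act on recombination intermediates, all but SLX4 fell. EME1 (ENSG00000154920.14, chromosome 17, 50373220 to 50381483), partner of the MUS81 nuclease, had 11.4, 10.3, 8.47 and 8.98 CPM in the DMSO libraries, 11.6, 9.28, 9.25 and 9.73 in those given EZH2i, 3.88, 3.46, 2.73 and 2.96 in those given PRMT5i and 4.99, 4.04, 4.99 and 4.88 in those given both. Its libraries with PRMT5i lay under 5.1 CPM and those without it above 8.4 CPM (log2 fold change −1.58, SE 0.13, adjusted p = 1.5e-07). MUS81 itself fell by less (−0.45), and BLM fell from 96.5 ± 18 to 49.6 ± 3.33 CPM (−0.96). POLQ (ENSG00000051341.13, chromosome 3, 121431427 to 121546641), whose polymerase theta joins resected ends outside recombination, had 50.2, 44.6, 41.2 and 43.4 CPM in the DMSO libraries, 42.1, 49.6, 45.5 and 49.4 in those given EZH2i, 21.7, 20.7, 17.5 and 16 in those given PRMT5i and 28.8, 28.7, 23.2 and 22.7 in those given both. It fell with PRMT5i (log2 fold change −1.24, SE 0.12, adjusted p = 4.55e-07).

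**Figure D2:**
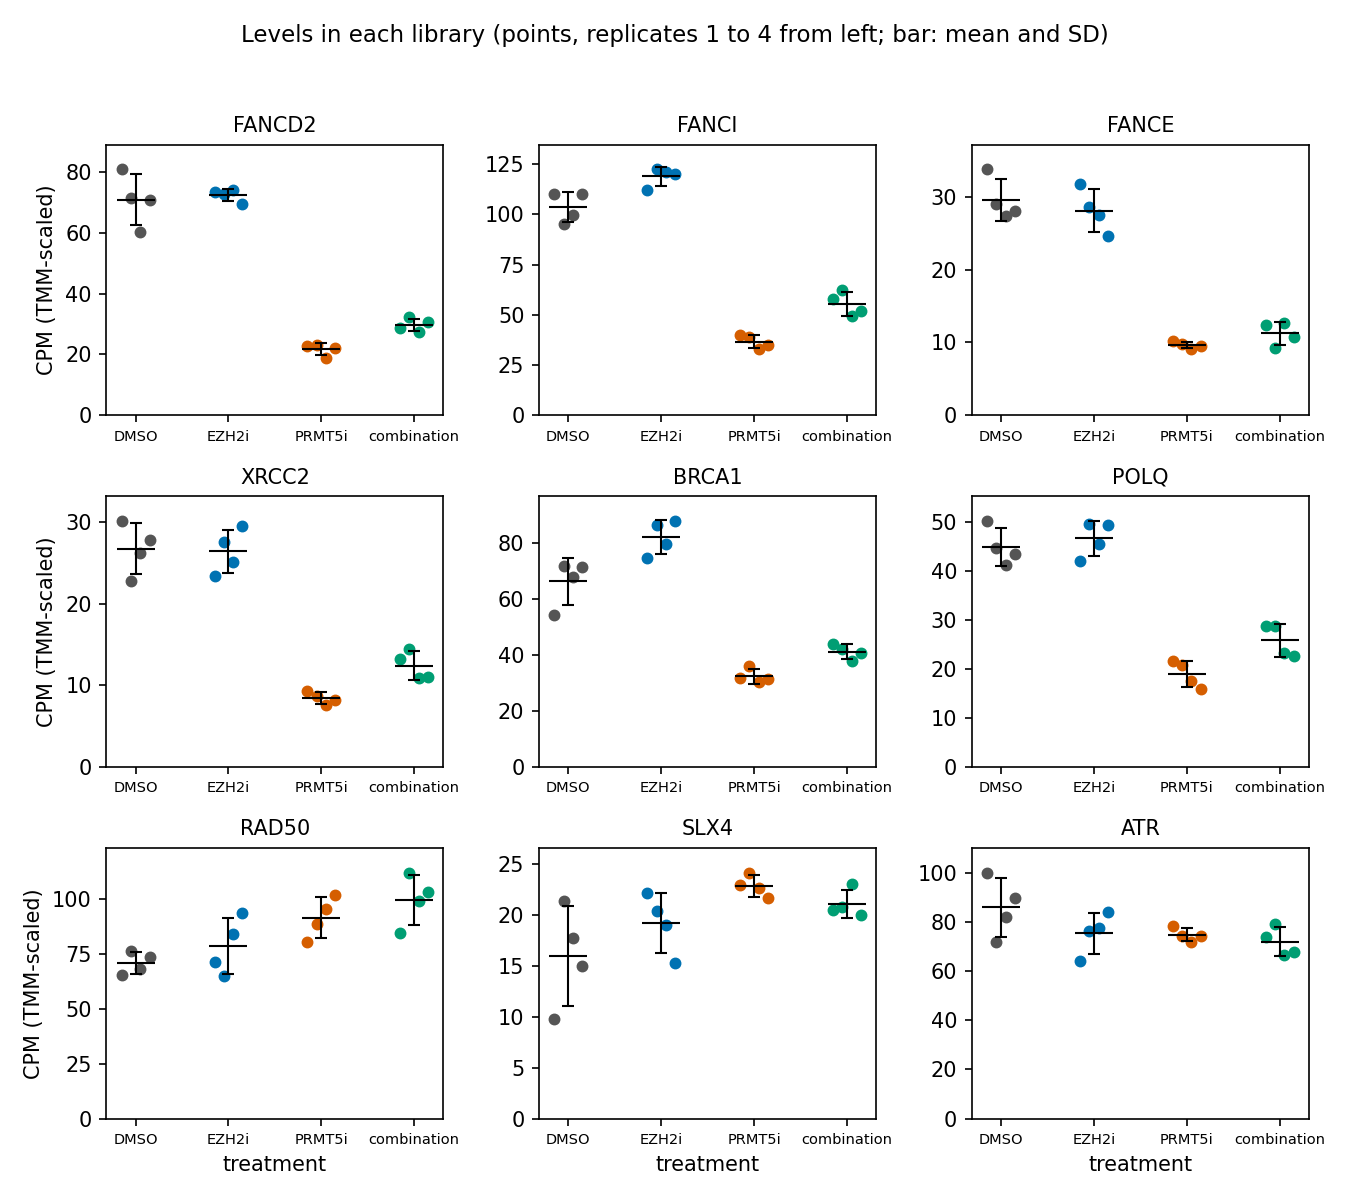
TMM-scaled CPM (y axis, from 0) of 9 of the genes in each of the 16 libraries, by treatment (x axis). Points are replicates 1 to 4 from left to right, and bars show the mean and SD of 4 libraries. The PRMT5i libraries of FANCD2 lie between 18.9 and 23.2 CPM and its DMSO libraries between 60.4 and 81.0 CPM, while those of ATR overlap.

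Of the 31 calls with PRMT5i, 27 held without any 1 of the 16 libraries, and none changed sign in any alternative. Without DMSO replicate 1, 28 were lower and 1 was higher, where 18.6% of all genes were lower and 15.7% higher. In replicates 1 and 2 alone 15 of the 36 were called lower, where 4.86% of all genes were. In replicates 3 and 4 alone 30 of the 36 were, where 16.7% of all genes were. A total of 11 genes (XRCC3, RAD54L, RAD54B, FANCA, FANCF, FANCL, RAD50, KAT5, ATR, EME1 and MUS81) share at least 10% of their exon bases with 1 other gene, up to 79.7% for RAD50, and their levels are uncertain, as no source used here says whether strand was used in counting. Of the other 25 genes 22 fell and 1 rose, where 18.3% of all genes were called lower and 17.1% higher. Pseudogene copies named after members had a mean of 0.134 CPM at most.

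Proliferation genes moved with the set. Of 22 proliferation markers 20 fell with PRMT5i (median −1.14), including the mitotic kinase gene AURKB (−1.96) and the replication licensing gene CDC6 (−1.36), and their summed level was 3393 to 3786 CPM with DMSO, 3931 to 4169 CPM with EZH2i and 1514 to 1704 CPM with PRMT5i. Monocyte markers rose in 6 of 9, fell in 1, and their summed level was 599.8 to 1029 CPM with DMSO and 1111 to 1445 CPM with PRMT5i. The genes of leukaemia cell identity rose in 6 of 8, and CSF1R is in both this list and the monocyte list. Of all genes 18.3% were called lower and 17.1% higher. Of the tested markers of other cells, 1 of 3 T and NK cell markers fell and 1 rose, 1 of 4 B cell markers rose, 0 of 2 epithelial and fibroblast markers passed in edgeR, and 0 of 5 erythroid markers had enough counts. The part of these shifts in the fall of the repair genes was not tested, and in bulk RNA fewer cells of a type and less RNA per cell cannot be told apart.

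A further 61 genes of the same pathways, listed apart from the 36, had 33 lower and 4 higher with PRMT5i (median −0.44). MND1, which acts in the pairing of DNA strands, fell from 22.5 ± 5.13 to 6.71 ± 0.460 CPM (−1.74). UBE2T, which encodes the E2 enzyme of the Fanconi ligase, fell from 40.2 ± 11 to 15.8 ± 0.973 CPM (−1.35). CENPS (−1.27), whose product binds FANCM, and the excision nuclease gene ERCC1 (−0.87) fell too, with 64.8% and 28.6% of their exon bases shared with 1 other gene. TP53BP1, which limits resection, rose from 37.2 ± 6.36 to 58.8 ± 2.22 CPM (0.66), with 28.7% of its exon bases shared. The deubiquitinase gene BRCC3 (0.34), the clamp gene HUS1 (0.24) and BABAM1 (0.20), of the BRCA1-A complex, rose by less.

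Some genes of other repair pathways also fell with PRMT5i, where 18.3% of all genes were called lower and 17.1% higher. Mismatch repair had 4 of 7 lower (median −0.48), among them MSH6 (−1.02), whose product recognises a mismatch. End joining had 6 of 16 lower and 0 higher in edgeR (median −0.25), led by PAXX (−1.16), a Ku partner gene, and MAD2L2 (−0.63), of the shieldin complex. Base excision and single-strand break repair had 7 of 20 lower and 1 higher (median −0.17), with the glycosylase genes NEIL3 (−0.98) and OGG1 (−0.69) lowest in p. Nucleotide excision repair had 2 of 18 lower and 2 higher, 11.1% each (median −0.09). The transcription-coupled repair gene ERCC6 rose (0.52) and the damage-binding gene RAD23B fell (−0.32). The difference between lists was not tested.

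**Figure D3:**
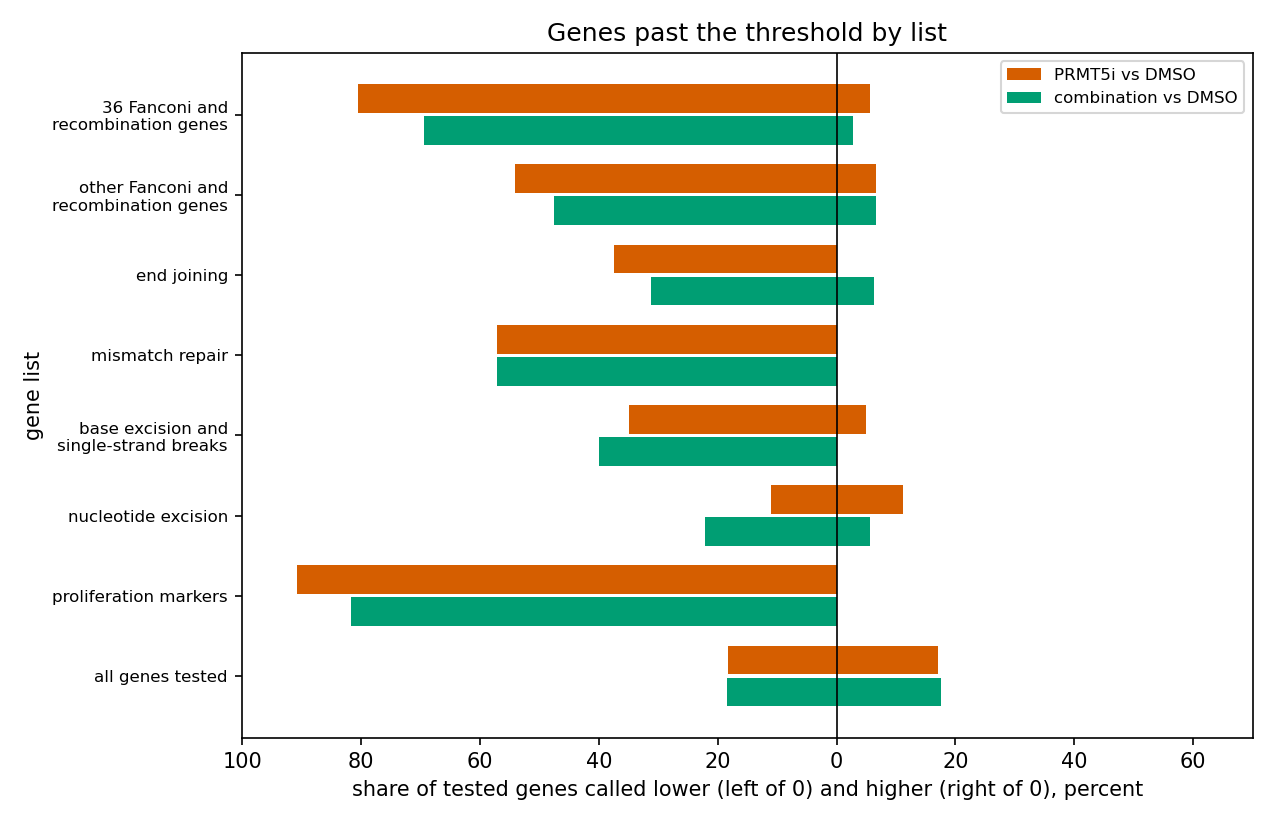
Share of tested genes (x axis, percent) called lower (left of 0) and higher (right of 0) at an adjusted p under 0.05, for each gene list (y axis), with PRMT5i and with the combination against DMSO. Bars are shares of 36, 61, 16, 7, 20, 18, 22 and 16555 genes from top to bottom. The set of 36 stands at 80.6% lower with PRMT5i and all genes at 18.3%.

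EZH2i against DMSO asks what EZH2 inhibition alone did. None of the 36 genes passed in edgeR, where 3.49% of all genes were called lower and 4.11% higher, 7.6% in all. At an unadjusted p under 0.05 there were 5, of which 4 were higher and 1 lower, against 13.2% and 13.8% of all genes. DESeq2 called 3 of the 36 higher and 0 lower, where it called 6.34% of all genes higher and 6.64% lower. The median log2 fold change was 0.01, with values from −0.40 for NBN to 0.49 for FANCC. FANCC had 6.99, 14.6, 11.2 and 9.73 CPM in the DMSO libraries, 16, 14.3, 15 and 14.4 in those given EZH2i, 6.84, 8.09, 7.84 and 7.58 in those given PRMT5i and 10.5, 10.6, 13 and 12.1 in those given both. Its EZH2i libraries were close to each other and the DMSO libraries were not (log2 fold change 0.49, SE 0.16, adjusted p = 0.0632). All EZH2i libraries lay above all DMSO libraries for BRCA1 (log2 fold change 0.31, SE 0.10, adjusted p = 0.0633) and FANCI (log2 fold change 0.20, SE 0.09, adjusted p = 0.170), 2 of 36 genes against 5.48% of all genes. FANCC, BRCA1 and RAD54L were the 3 that DESeq2 called. Without DMSO replicate 2 edgeR called 4 of the 36 higher and 3 lower, where 13.5% of all genes were higher and 13.7% lower. With a correction for GC content it called 6 higher and 2 lower, where 8.45% of all genes were higher and 9.68% lower. Scaled by total counts only, 289 genes in all were lower and 855 higher in place of 578 and 681. Of the 22 proliferation markers 4 rose with EZH2i, and of the 61 further pathway genes 1 rose (CLSPN, 0.46) and 1 fell (ZSWIM7, −0.28).

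The combination against DMSO asks what both inhibitors did together, with the same DMSO libraries as above. Of the 36 genes 25 fell, 1 rose and 10 did not pass, where 18.5% of all genes were called lower and 17.6% higher, 36.2% in all. Scaled by total counts only, 2021 genes were lower and 3897 higher in place of 3070 and 2920, the median of all genes moved to 0.13, and 21 of the 36 were lower. The median log2 fold change of the 36 was −0.56. A fall of at least 1 was called for 6 (3.12% of all genes), and all combination libraries lay under all DMSO libraries for 20 (16.4% of all genes).

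The 6 with the smallest p were FANCE (log2 fold change −1.40, SE 0.11, adjusted p = 1.36e-07), FANCD2 (log2 fold change −1.25, SE 0.10, adjusted p = 9.68e-08), XRCC2 (log2 fold change −1.11, SE 0.12, adjusted p = 2.27e-06), FANCG (log2 fold change −1.08, SE 0.10, adjusted p = 6.22e-07), EME1 (log2 fold change −1.05, SE 0.13, adjusted p = 1.27e-05) and FANCI (log2 fold change −0.91, SE 0.09, adjusted p = 1.39e-06). All 6 had combination libraries under every DMSO library. By role, 11 of 12 mediators and partners, 4 of 8 core genes, both genes of the substrate pair and POLQ (−0.80) fell, while BRCA2 (−0.32), FANCA (−0.29), FANCM (−0.43) and FANCC (0.12) did not pass. RAD50 rose (log2 fold change 0.49, SE 0.12, adjusted p = 0.00326), and SLX4 did not pass (0.40).

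The calls of PALB2 (−0.29) and FANCB (−0.58) were lost without any 1 combination library, without DMSO replicate 1 or 4, and for FANCB also without DMSO replicate 3, and the other 24 calls held without any 1 library. Without DMSO replicate 1, 24 were lower and 1 was higher, where 18.8% of all genes were lower and 16.2% higher. In replicates 1 and 2 alone 9 of the 36 were lower, where 4.79% of all genes were. In replicates 3 and 4 alone 27 of the 36 were, where 15.3% of all genes were. Proliferation markers had 18 of 22 lower (median −0.70), with a summed level of 2189.9 to 2326 CPM, and monocyte markers had 1 of 9 lower and 4 higher. Their part in the result was not tested. The 61 further genes had 29 lower and 4 higher, with MND1 at −1.04, CENPS at −0.76, ERCC1 at −0.75, UBE2T at −1.01, and TP53BP1 (0.71), WDR48 (0.32), HUS1 (0.22) and BRCC3 (0.26) higher. Mismatch repair had 4 of 7 lower, end joining 5 of 16 lower and 1 higher, base excision 8 of 20 lower and nucleotide excision 4 of 18 lower and 1 higher.

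The combination against PRMT5i asks what EZH2i added under PRMT5 inhibition. Of the 36 genes 8 rose and 0 fell in edgeR, where 2.91% of all genes were called higher and 1.24% lower, 4.16% in all. At an unadjusted p under 0.05 there were 18 higher and 0 lower, against 9.39% and 6.51% of all genes. DESeq2 called 11 of the 36 higher and 0 lower, where it called 4.28% of all genes higher and 2.14% lower. The 8 were FANCI (log2 fold change 0.60, SE 0.09, adjusted p = 0.00145), FANCD2 (log2 fold change 0.46, SE 0.10, adjusted p = 0.0118), XRCC2 (log2 fold change 0.55, SE 0.12, adjusted p = 0.0126), EXO1 (log2 fold change 0.52, SE 0.11, adjusted p = 0.0157), RAD54L (log2 fold change 0.62, SE 0.15, adjusted p = 0.0307), EME1 (log2 fold change 0.53, SE 0.13, adjusted p = 0.0329), POLQ (log2 fold change 0.44, SE 0.12, adjusted p = 0.0380) and FANCC (log2 fold change 0.61, SE 0.16, adjusted p = 0.0387). In each of the 8 every combination library lay above every PRMT5i library, as in 19 of the 36 and in 10.2% of all genes. The reverse order was found for 0 of the 36 and 8.79% of all genes. The median of the 36 was 0.29, with 30 values above 0. Of the 8, RAD54L and EME1 share 25.1% and 16.4% of their exon bases with 1 other gene. Among the 25 genes that share under 10%, 6 were called higher.

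**Figure D4:**
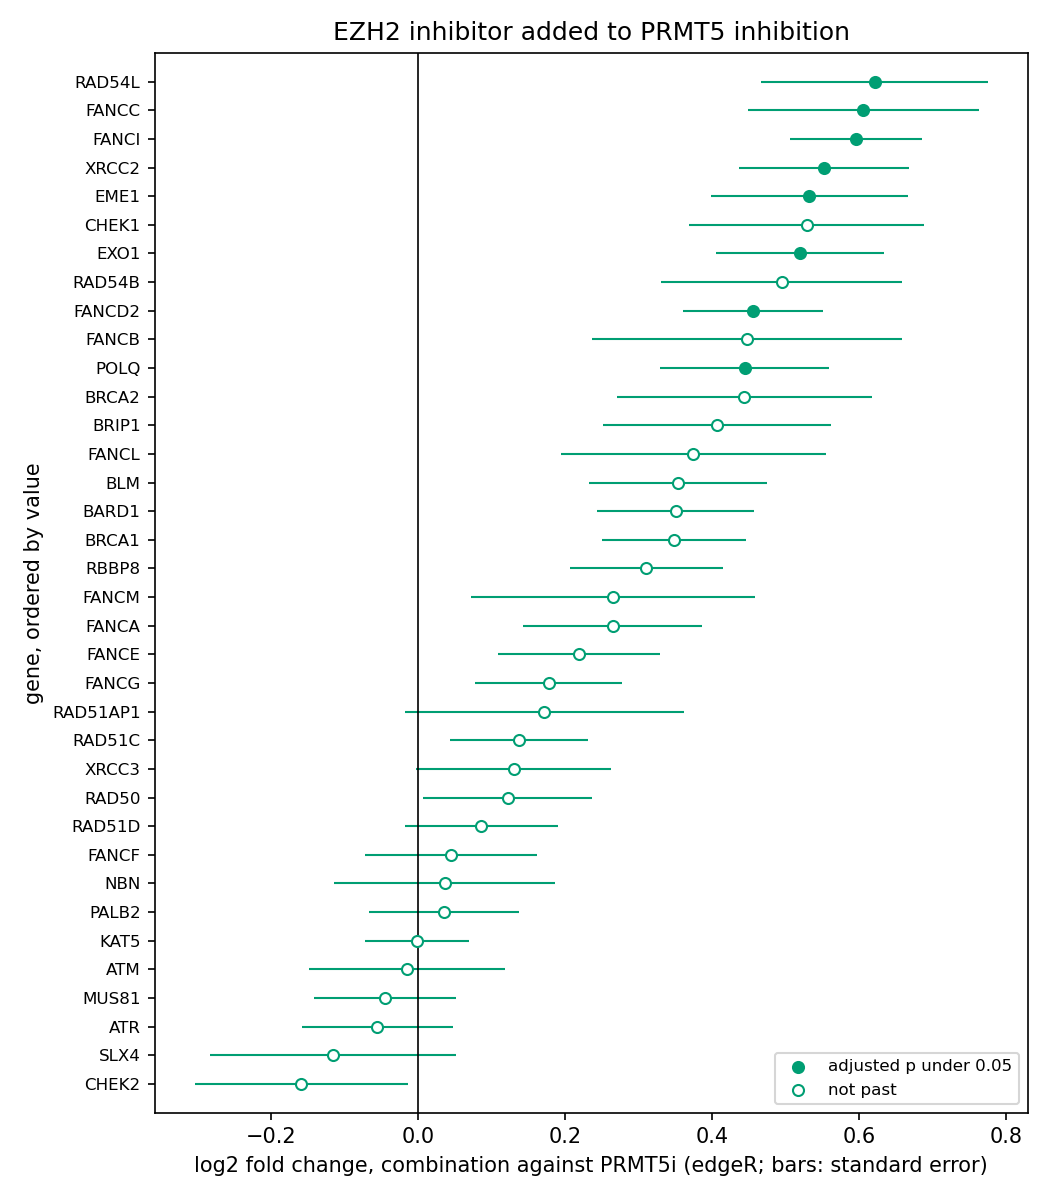
Log2 fold change of the combination against PRMT5i (x axis) for the 36 genes (y axis, ordered by value), with standard errors derived from the edgeR test as bars. Filled points passed at an adjusted p under 0.05. The 8 filled points lie between 0.44 and 0.62.

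The levels reached in the combination were still under those with DMSO for most of these genes. FANCI had a mean of 55.3 ± 5.94 CPM in the combination against 36.6 ± 3.32 with PRMT5i and 104 ± 7.48 with DMSO, and EXO1 had 23.9 ± 2.91, 16.7 ± 1.98 and 34.5 ± 4.90 CPM. FANCC, at 11.6 ± 1.23 CPM against 10.6 ± 3.16 with DMSO, was the exception. BRCA1 (0.35), CHEK1 (0.53) and RAD54B (0.50) did not pass.

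The number of genes called here depended on single libraries and on the model. It was 1 (FANCI) without PRMT5i replicate 3, where 1.13% of all genes were higher. Without PRMT5i replicate 4, combination replicate 1 or combination replicate 2 it was 3, where 1.33%, 1.65% and 1.67% of all genes were. Without PRMT5i replicate 2 it was 5 (1.93% of all genes), and without DMSO replicate 1 or DMSO replicate 2 it was 12 (3.93% and 3.77%). It was 0 in replicates 1 and 2 alone, where 0.00584% of all genes were higher, and 6 in replicates 3 and 4 alone (2.77%). It was 13 with total counts only, where 748 genes in all were higher and 121 lower in place of 482 and 206. It was 16 with GC correction, where 5.41% of all genes were higher, and 18 in a fit of the 2 groups alone, where 7.66% were. Proliferation markers moved with these genes, 13 of 22 higher (median 0.54). Monocyte markers had 2 of 9 lower (median −0.36), with a summed level of 943 to 1102 CPM in the combination against 1111 to 1445 CPM with PRMT5i. The part of either list in the result was not tested. Of the 61 further genes 3 rose, MND1 (0.70), CENPS (0.51) and DMC1 (0.95). Of the mismatch repair genes 1 of 7 rose, and 3 of 7 were higher at an unadjusted p under 0.05. Of the end joining and both excision repair lists 0 genes passed in edgeR, where 1 of 16 end joining, 1 of 18 nucleotide excision and 4 of 20 base excision genes had an unadjusted p under 0.05.

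The combination against EZH2i asks what PRMT5i added under EZH2 inhibition. Of the 36 genes 23 fell and 1 rose, where 14.6% of all genes were called lower and 13.4% higher, 28% in all, and the median log2 fold change was −0.58. FANCE (log2 fold change −1.32, SE 0.11, adjusted p = 2.74e-07), FANCD2 (log2 fold change −1.29, SE 0.10, adjusted p = 1.11e-07), FANCG (log2 fold change −1.24, SE 0.10, adjusted p = 2.24e-07), FANCI (log2 fold change −1.11, SE 0.09, adjusted p = 2.64e-07), XRCC2 (log2 fold change −1.09, SE 0.12, adjusted p = 3.34e-06) and BRCA1 (log2 fold change −1.0, SE 0.10, adjusted p = 1.7e-06) had the 6 smallest p, each without overlap between the groups. A fall of at least 1 was called for 7 of the 36 and for 2.81% of all genes, and all combination libraries lay under all EZH2i libraries for 22 (15.6% of all genes). RAD50 was the gene that rose (log2 fold change 0.35, SE 0.12, adjusted p = 0.0339). The call of RAD50 was lost without EZH2i replicate 1 or 2, PRMT5i replicate 2, or combination replicate 2, 3 or 4, with GC correction and in a fit of the 2 groups alone. Proliferation markers moved with these genes, 18 of 22 lower (median −0.77), while 4 of 9 monocyte markers and 5 of 8 genes of leukaemia cell identity were higher and 1 identity gene was lower. Their part in the result was not tested. The calls of ATM, FANCB and MUS81 were lost without 1 or more single libraries of the 2 groups, and the other 20 calls held without any 1 of the 16.

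The interaction, the effect of EZH2i under PRMT5i minus its effect without it, passed for none of the 36 genes in edgeR, DESeq2 or any other alternative, where 0.0362% of all genes were called lower and 0.254% higher, 0.29% in all. At an unadjusted p under 0.05 there were 11 genes, all 11 positive, against 5.48% of all genes positive and 3.51% negative, and the median over the 36 was 0.30. XRCC2 (log2 fold change 0.57, SE 0.16, adjusted p = 0.256), RBBP8 (log2 fold change 0.50, SE 0.15, adjusted p = 0.274) and FANCD2 (log2 fold change 0.42, SE 0.13, adjusted p = 0.317) had the smallest p. The rise of 8 genes from PRMT5i to the combination is thus not shown to differ from the effect of EZH2i without PRMT5i.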

How the data were processed

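RNA of 16 MOLM-13 libraries was sequenced as paired ends. The values the authors deposited are expected counts of genes, not scaled to depth or length. The submitters' processing notes name STAR 2.5.3, RSEM and the build GRCh38.p7, and RSEM version, annotation and strand setting are not given in the sources used here. Of the values 12.0% are not whole, since RSEM divides reads shared by genes, so near-identical copies are uncertain.

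Counts were rounded, filtered with filterByExpr (16555 of 60669 genes) and scaled by TMM. 1 quasi-likelihood model with 4 group means (edgeR 4.0.16, R 4.3.3) gave all contrasts, with Benjamini-Hochberg adjustment over all genes and a threshold of 0.05; the function was tested on simulated data. SE were derived from its test, as the size of the log2 fold change divided by the square root of the F statistic. All 16 columns were used, and depth was 31142456 to 52885899 expected counts. Replicates of a group differed beyond sampling noise (chi-square per degree of freedom 8.92 to 296).

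The 36 genes and all lists were chosen with earlier results of these data known. Values per library are given for the drug targets, for the 6 genes with the smallest p in each direction of each pairwise comparison, and for the smallest p of each role; the library values of FANCC, RAD51AP1 and ATR, and FLT3, CD33, NKG7, CLSPN, ZSWIM7 and DMC1 were added after their values were seen. Of the further pathway list up to 4 genes, and of other lists up to 2, with the smallest p in a direction are named; some genes the rule would name are not reported here. The lists are further Fanconi and recombination genes, end joining (16 of 17 symbols in the table), mismatch, nucleotide excision and base excision repair, proliferation, leukaemia cell identity, monocyte, T and NK cell, B cell, erythroid, and epithelial and fibroblast markers. Alternatives were DESeq2 1.42.0, other scalings and filters, GC offsets, 2-group fits, replicate terms and each library left out. Positions, lengths and overlaps are from GENCODE 29, promoter windows from RefSeq (GRCh38.p14). Python 3.11.15 and matplotlib 3.10.9 were used.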

Additional observations from a re-analysis of the deposited data

Results flagged for a closer look

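Levels of the 36 genes were screened for a library far from the other 3 of its group, in 144 groups of 4, of which chance alone would mark about 1 in 20. One was marked. EME1 in combination replicate 2 had 4.04 CPM, and the other 3 combination libraries had 4.88 to 4.99 CPM. EME1 was called higher in the combination than with PRMT5i with all libraries included, and also without combination replicate 2. The call was lost without combination replicate 1, 3 or 4, or PRMT5i replicate 2, 3 or 4. With no filter on low counts and within replicates 1 and 2 it was lost too.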

How the results depend on the processing

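A total of 26 alternatives was planned and 2, the fits within replicates 1 and 2 and within replicates 3 and 4, were added after seeing the data. No call among the 36 genes changed sign in any of them. For PRMT5i against DMSO, 15 of the 31 called genes passed in all 28, 9 of 26 for the combination against DMSO, 9 of 24 for the combination against EZH2i and 0 of 8 for the combination against PRMT5i. Leaving out 1 library at a time gave these ranges of genes called: PRMT5i against DMSO 27 to 30 lower and 1 to 2 higher, EZH2i against DMSO 0 to 3 lower and 0 to 4 higher, the combination against DMSO 23 to 30 lower and 1 to 2 higher, against EZH2i 20 to 26 lower and 0 to 1 higher, and against PRMT5i 0 lower and 1 to 12 higher. Of all genes, 15.1% to 20.2% were lower and 13.5% to 20.3% higher for PRMT5i against DMSO. For EZH2i against DMSO 1.25% to 13.7% were lower and 1.72% to 13.5% higher, both most without DMSO replicate 2. The combination had 15.5% to 20.8% lower and 14.6% to 21.3% higher against DMSO, and 11.4% to 18.7% and 10.5% to 15.4% against EZH2i. Against PRMT5i it had 0.435% to 2.08% lower and 1.13% to 3.93% higher. Within replicates 1 and 2, PRMT5i against DMSO had 15 lower and 0 higher, the combination had 9 lower and 0 higher both against DMSO and against EZH2i, and 0 were higher for the combination against PRMT5i. Of all genes, 4.86% were lower there for PRMT5i against DMSO, and 4.79% and 3.44% for the combination against DMSO and EZH2i. For the combination against PRMT5i 0.00584% of all genes were higher. Within replicates 3 and 4, a fit of the same size, 30 of the 36 were lower for PRMT5i against DMSO and 27 for the combination against DMSO, and 2 were higher for the combination against DMSO, 0 for the combination against EZH2i and 1 for EZH2i against DMSO. Of all genes 16.7% and 15.3% were lower, and 16%, 10.4% and 6.22% higher, in the order given. With GC correction 6 of the 36 were higher and 2 lower for EZH2i against DMSO, where 8.45% and 9.68% of all genes were. For the combination against DMSO, EZH2i and PRMT5i 2, 0 and 16 were higher, where 23.7%, 18.2% and 5.41% of all genes were. In fits of the 2 groups alone 1 was higher for PRMT5i against DMSO, where 14.1% of all genes were. For the combination, 0 were higher against EZH2i (15.1% of all genes) and 18 against PRMT5i (7.66% of all genes). Against PRMT5i 13 were higher with total counts only, where 4.52% of all genes were. For EZH2i against DMSO 2 were higher with a minimum of 1 CPM (5.5% of all genes) and 3 with DESeq2 (6.34% of all genes). The cause of these changes was not tested.

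Whether replicate numbers pair the libraries is not settled by these data. Same-numbered libraries of 2 groups had correlations of deviations from −0.272 to 0.236 (24 pairs, median 0.0238). For other numbers they ran from −0.358 to 0.472 (median −0.0246). Same-numbered pairs of PRMT5i and the combination had 0.206, 0.0258, 0.236 and 0.136, and those of DMSO and EZH2i had −0.232, −0.272, −0.00718 and 0.209. Libraries of 2 groups with other numbers had a median of 0.0394 where both were of replicates 1 and 2 or both of replicates 3 and 4, and −0.0694 otherwise (48 pairs). The labels name no batch. With the replicate block 2 of the 36 were higher for EZH2i against DMSO in place of 0, where 4.87% of all genes were. From PRMT5i to the combination 9 rose in place of 8, where 3.59% of all genes did. In the combination against DMSO 23 fell in place of 25, where 18.7% of all genes did. Over all genes the calls ranged, over the alternatives, from 0 to 2280 higher and 0 to 2311 lower for EZH2i against DMSO (681 and 578 as reported), 636 to 3691 and 833 to 3663 for PRMT5i against DMSO (2824 and 3023), 690 to 3929 and 820 to 3628 for the combination against DMSO (2920 and 3070), 1 to 1212 and 0 to 887 against PRMT5i (482 and 206), 412 to 3014 and 589 to 3153 against EZH2i (2221 and 2412), and 0 to 155 and 0 to 140 for the interaction (42 and 6).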
